A study of Mus musculus with 6 samples.

Results

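The stretch described here is chromosome 18 from 10 to 20 Mb (mm10), and its members are the ATAC-seq peaks whose summits lie in it. ATAC-seq uses the transposase Tn5 to cut accessible DNA, so a peak marks chromatin that the enzyme could reach. The 6 peak lists held 5444 lines with a summit in the stretch, which merged into 930 regions out of 267421 regions in the whole series. Members were chosen by the measured summit positions of the 6 lists and by no comparison of the genotypes, but with earlier results of these data known. As a summit enters a list only when it is strong enough, the number and height of members are given as descriptions unless a test is named.

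The peaks came from cultured preadipocytes of inguinal white adipose tissue at day 0, before any differentiation mixture was added. The 3 WT libraries were from wild type mice and the 3 DKO libraries from mice carrying germline deletions of both Hmgn1 and Hmgn2, with C57BL/6 given as the strain of both. The deletions are present in every cell of the animal, and the study's methods describe taking such cells from young adult mice. The labels do not say whether the 3 libraries of a genotype came from separate animals or cultures, so the spread between libraries may be partly technical. The question addressed was whether chromatin accessibility differed between DKO and WT cells.

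HMGN1 and HMGN2 are small nuclear proteins that bind nucleosomes without regard to DNA sequence, compete with linker histone H1 and are found at promoters and enhancers. Accessible sites in fibroblast-like cells such as preadipocytes fall mainly into promoters and into distal enhancers, many of which hold the motif of AP-1, the dimer of FOS and JUN family proteins. Gene-poor stretches of a chromosome are usually packed as compact chromatin that replicates late, and hold few accessible sites.

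Compared with each other, the first 5 Mb of the stretch are rich in genes and the last 5 Mb are sparse. GENCODE M21 (basic) places the start sites of 25 protein-coding genes at 10 to 15 Mb, which is 5.0 per Mb, and of 4 at 15 to 20 Mb, which is 0.8 per Mb. The peaks followed the same division, with 742 merged regions (148.4 per Mb) at 10 to 15 Mb and 188 (37.6 per Mb) at 15 to 20 Mb. The merged regions had a median width of 226 bp, and 276 of them (29.7%) were present in all 6 lists while 317 (34.1%) were present in 1 list only. The adjoining 10 Mb, from 20 to 30 Mb, held 561 regions and 37 protein-coding start sites.

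Each list was cut by the authors near 300000 peaks and held 299433 to 299620 lines, so a summit is absent from a list when it ranks below that limit, not only when the chromatin is closed. The lowest −log10 p listed was 4.33, 3.63 and 5.63 for WT (values are given throughout in replicate order) and 4.10, 4.17 and 3.54 for DKO. The lowest pileup (overlapping Tn5 cut fragments at a summit) listed at 10 to 30 Mb was 11, 10 and 12 in WT and 10, 11 and 8 in DKO. WT replicate 3 therefore had the strictest limit and DKO replicate 3 the most permissive. Marker promoters were checked against the labelled cell type. A window (an interval of about 0.5 kb centred on a summit) lay at the promoter of 6 of 7 preadipocyte and stromal genes, with a summed fold enrichment of 37.1, 36.8 and 41.9 in WT and 36.3, 31.9 and 31.7 in DKO (no overlap), and of 0 of 4 mature adipocyte genes (Adipoq, Plin1, Cidec and Lep). All such sums are unscaled and count an absent window as 0, as for Dlk1 in DKO replicate 2. After quantile normalization the log2 changes at the 6 stromal promoters, DKO minus WT, ran from −0.31 to 0.23 (limma adjusted p of 0.739 or more). Windows were also present at 4 of 4 endothelial and 3 of 4 immune promoters, with Ptprc at none. The endothelial Cdh5 was listed in 0 WT and 3 DKO libraries (3.91, 7.09 and 4.26) and the immune Adgre1 in 0 WT and 2 DKO libraries, each singled out after its values were seen. The summed fold enrichment of the endothelial list was 23.8 to 30.4 in WT and 20.7 to 30.3 in DKO, and that of the immune list 9.16 to 9.84 and 8.98 to 13.9. The part of other cell types in the results was not tested. The Hmgn2 promoter had a summit in each of the 3 WT lists but in none of DKO, while the Hmgn1 promoter window was listed in all 6.

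The number of summits in the gene-rich part did not separate the genotypes. At 10 to 15 Mb the lists held 745, 767 and 766 summits in WT and 785, 722 and 759 in DKO, and the groups overlapped (exact permutation test over the 20 assignments of the libraries, two-sided p = 0.8). In the sparse part, from 15 to 20 Mb, they held 164, 167 and 183 summits in WT and 138, 115 and 133 in DKO. Every DKO library was below every WT library, and the mean was lower by 24.9% (171 ± 10.2 against 129 ± 12.1, SD, n = 3 each, exact permutation p = 0.10). With 3 libraries against 3 no exact p can be smaller than 0.10, so none of these comparisons could reach 0.05. The adjoining 10 Mb held 631, 652 and 616 summits in WT and 580, 570 and 603 in DKO, a mean lower by 7.69% without overlap (exact permutation p = 0.10).

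The ratio of summits in the gene-rich part to those in the sparse part was 4.54, 4.59 and 4.19 in the WT libraries and 5.69, 6.28 and 5.71 in the DKO libraries. All 3 DKO ratios were above all 3 WT ratios (difference of the means 1.45, exact permutation p = 0.10). The difference was 0.557 with the boundary at 14 Mb, 2.56 at 16 Mb and 7.66 among the 50000 best peaks of each list. The last of these rests on few summits at 15 to 20 Mb, 12, 11 and 14 in WT and 5, 9 and 10 in DKO. For the first and last 5 Mb of the adjoining stretch the ratio over the full lists was 2.90, 2.90 and 2.92 in WT and 3.20, 3.25 and 2.99 in DKO, which also did not overlap.

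These counts need the background of the whole genome. Among 535 bins of 5 Mb, 24.5% had fewer summits in every DKO library than in any WT library and 15.3% had more. Sparse bins were lower more often than dense ones: of the 95 most sparse bins (under 200 summits) 56 were lower and 1 higher, with a median DKO to WT ratio of 0.838, while of the 132 most dense 2 were lower and 51 higher. The ratio of 15 to 20 Mb was 0.751, and 14 of 513 bins with at least 50 summits had a ratio that low or lower, itself included. The ratio of 10 to 15 Mb was 0.995.

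Within the sparse part the difference lay in the last 3 Mb. From 15 to 17 Mb, which holds the Kctd1, Aqp4, Chst9 and Cdh2 genes, the lists held 107, 108 and 109 summits in WT and 111, 99 and 108 in DKO. From 17 to 20 Mb they held 57, 59 and 74 in WT and 27, 16 and 25 in DKO. The mean changed by −64.2% there, without overlap (63.3 ± 9.29 against 22.7 ± 5.86, SD, n = 3 each, exact permutation p = 0.10). The boundary at 17 Mb was chosen after the values were seen, so this division is a description.

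By single Mb, the bin from 17 to 18 Mb held 30, 29 and 42 summits in WT and 11, 8 and 14 in DKO. The bin from 19 to 20 Mb held 21, 24 and 21 in WT and 10, 6 and 8 in DKO. Both were lower in every DKO library, as were 19.9% of the 2536 bins of 1 Mb in the genome. Their ratios of DKO to WT, 0.327 and 0.364, were the second and the third lowest of 2157 bins with a WT mean of at least 20 summits, whose median ratio was 0.995. Against 265 bins of like density, with a WT mean of 20 to 40 summits, the median ratio was 0.795 and 134 were lower in every DKO library. The bin from 18 to 19 Mb held only 6, 6 and 11 summits in WT and 6, 2 and 3 in DKO. In the adjoining stretch 5 of 10 bins were lower without overlap, 4 of them with fewer than 25 summits per library, while the bin that starts at 20 Mb held 77, 78 and 77 summits in WT and 77, 77 and 78 in DKO.

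**Figure D1:**
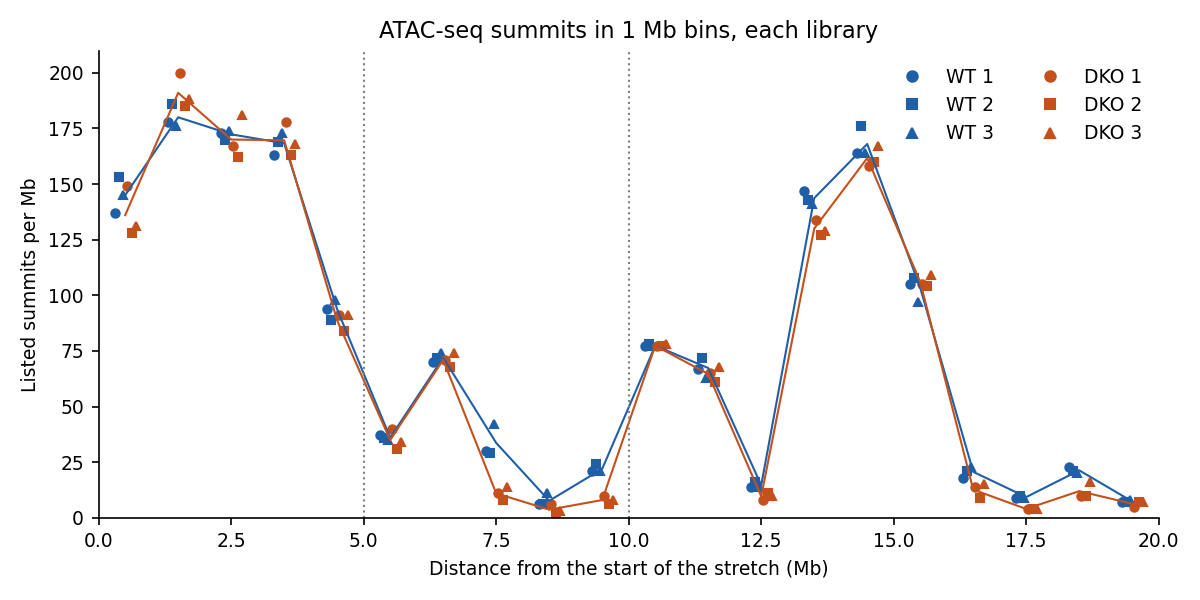
Listed summits per Mb (vertical axis) in 20 bins of 1 Mb, by distance from the start of the stretch at 10 Mb (horizontal axis); symbols are libraries, lines are genotype means and dotted lines stand at 5 and 10 Mb. WT (blue) and DKO (orange) run together over the first 7 Mb and part between 7 and 10 Mb, where WT libraries held 57 to 74 summits and DKO libraries 16 to 27.

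Peak strength showed the same division. Rank is given as the percentile of a summit by −log10 p within its own list (100 for the smallest p), over the 278 windows of the stretch that were listed in all 6 libraries. At 10 to 15 Mb (233 windows) the median rank was 75.6, 74.4 and 74.7 in WT and 73.7, 74.5 and 74.9 in DKO, and the groups overlapped. At 15 to 20 Mb (45 windows) it was 68.6, 68.4 and 62.4 in WT and 57.8, 56.7 and 54.8 in DKO, a difference of −10.0 without overlap (exact permutation p = 0.10). Over all listed summits of the sparse part, whichever libraries shared them, the median rank was 42.7, 38.1 and 39.8 in WT and 35.1, 43.5 and 35.8 in DKO, which overlapped (difference −2.08, exact permutation p = 0.6). Over the 8 such windows at 17 to 20 Mb it was 74.4, 73.7 and 76.1 in WT and 54.1, 49.6 and 47.7 in DKO, while over the 37 at 15 to 17 Mb it was 65.3, 65.4 and 59.7 in WT and 57.8, 58.99 and 61.4 in DKO, which overlapped. The median rank of all 103988 such windows in the genome was also lower in DKO, by 0.930, and did not overlap.

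The adjoining 10 Mb differed by −4.82 in median rank, from 72.7, 70.9 and 71.7 in WT to 66.8, 66.7 and 67.3 in DKO. Its own sparse part, from 25 to 30 Mb, differed by −11.5 (73.01, 73.7 and 77.6 in WT and 66.1, 59.5 and 64.1 in DKO), against −10.0 at 15 to 20 Mb, and did not overlap over all listed summits either (difference −5.50). Relative to the adjoining 10 Mb, the whole stretch ranked 1.16, 0.979 and 1.77 higher in WT and 4.46, 4.58 and 5.18 higher in DKO (exact permutation p = 0.10, no overlap). The gene-rich part holds 233 of the 278 windows behind these values, and over all listed summits the difference between the genotypes turned to −0.399. The median rank of the sparse part minus that of the gene-rich part was −7.05, −6.03 and −12.2 for WT, against −15.8, −17.8 and −20.1 for DKO.

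Fold enrichment (the pileup of cut fragments over the local background, in the authors' lists) had a median of 8.27, 7.12 and 9.90 in WT and 7.83, 7.82 and 6.86 in DKO at 10 to 15 Mb. At 15 to 20 Mb it was 7.82, 6.83 and 8.43 in WT and 6.15, 6.24 and 5.24 in DKO, without overlap (exact permutation p = 0.10), and over all listed summits there it was 4.69, 4.27 and 5.77 in WT and 4.19, 4.82 and 3.93 in DKO, with overlap. The median at 25 to 30 Mb was 9.05, 7.67 and 10.3 in WT and 6.99, 6.24 and 6.23 in DKO, again without overlap. Fold enrichment moves with depth, and over all windows its median was 7.60, 6.55 and 9.07 in WT and 6.89, 7.09 and 6.27 in DKO. The most frequent local background in the stretch was 2.42, 2.51 and 2.41 in WT and 2.58, 2.53 and 2.05 in DKO, and the part of depth in these medians was not tested.

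**Figure D2:**
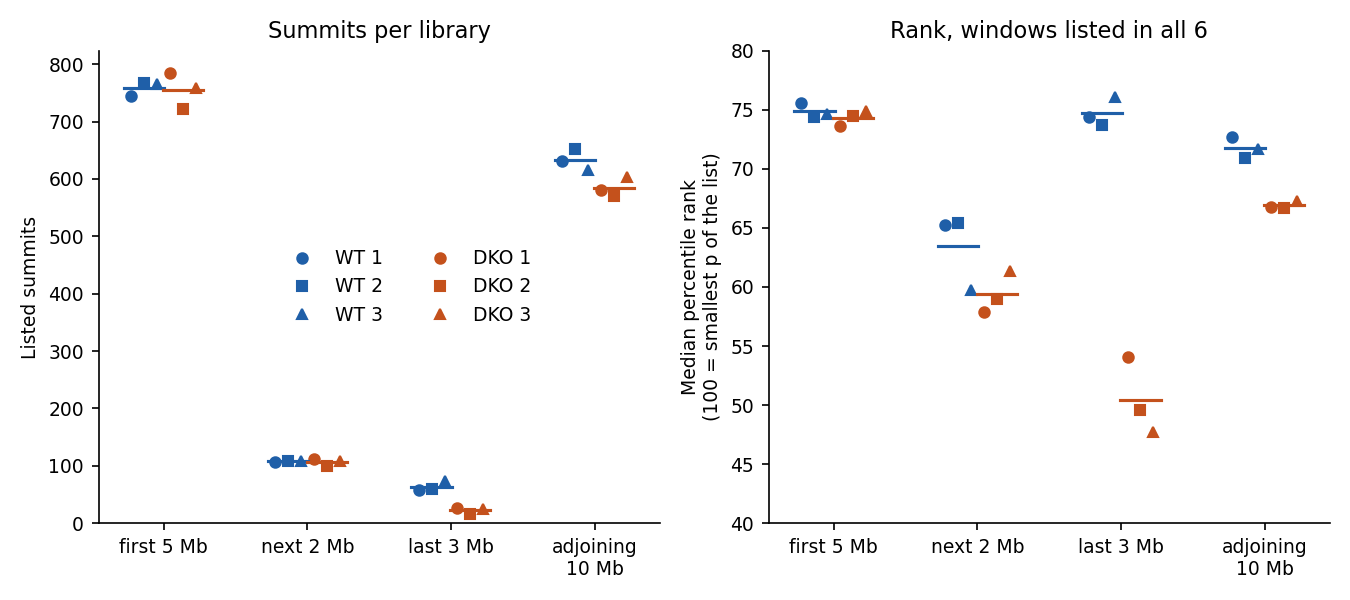
Listed summits (left) and median percentile rank by −log10 p (right, axis from 40 to 80) for each library over 10 to 15 Mb, 15 to 17 Mb, 17 to 20 Mb and the adjoining 20 to 30 Mb; symbols are libraries and bars are genotype means. At 17 to 20 Mb the DKO ranks, 47.7 to 54.1, all lie below the WT ranks, 73.7 to 76.1, whereas at 10 to 15 Mb the genotypes overlap.

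Single windows were then compared by fold enrichment after quantile normalization, with limma over all 179251 windows of the genome and Benjamini-Hochberg adjustment at 0.05. Of 828 windows in the stretch 583 were tested, 473 at 10 to 15 Mb and 110 at 15 to 20 Mb, and 245 had too few strong summits. In DKO, 5 windows were lower and 1 was higher, against a background of 0.0385% lower and 0.0234% higher, and without the variance trend of limma these counts were 21 and 5 (background 1.17% and 1.14%). In the sparse part 3 of 110 windows (2.73%), 2 of them listed in all 6 libraries, were lower and 0 were higher. Before adjustment 31 windows there (28.2%) were lower and 2 were higher at p under 0.05, against 6.1% and 5.69% of all windows. These counts include windows whose values in DKO were filled, and among the 45 windows listed in all 6 libraries 10 (22.2%) were lower and 0 were higher at that p, against 5.45% lower of all such windows. At 10 to 15 Mb the same counts were 33 (6.98%) and 28 (5.92%) of 473, close to that background, and at 20 to 30 Mb 49 of 370 (13.2%) were lower.

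The median log2 change, DKO minus WT, was 0.01 at 10 to 15 Mb, −0.33 at 15 to 20 Mb, −0.08 at 20 to 30 Mb and 0.01 over all windows. It was −0.03 over the 69 windows at 15 to 17 Mb and −1.01 over the 41 at 17 to 20 Mb, of which 35 lay below 0. At 17 to 20 Mb 23 windows (56.1%) had every DKO library below every WT library and 0 had the reverse, while 7.67% of all windows were lower and 8.76% higher without overlap. Absent values were set to the lowest fold enrichment of their list (1.49 to 1.57), which is below most listed summits, so a change at a window missing from some libraries is partly set by that filling. Over the windows listed in all 6 libraries, which hold no filled value, the median was −0.03 at 15 to 20 Mb (45 windows), the same as at 20 to 30 Mb (−0.03, 202 windows), −0.02 at 15 to 17 Mb (37 windows) and −0.63 at 17 to 20 Mb (8 windows, all below 0). Of these 45 windows at 15 to 20 Mb, 12 (26.7%) were lower without overlap and 3 (6.67%) were higher, against 7.95% and 9.86% of all such windows.

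**Figure D3:**
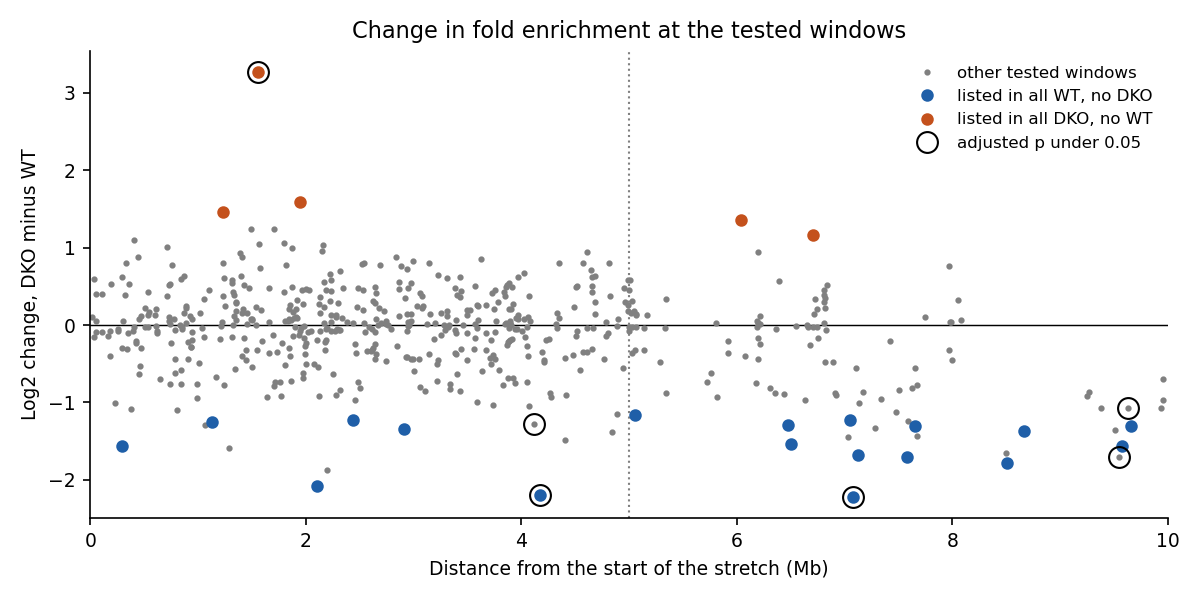
Log2 change in fold enrichment, DKO minus WT (vertical axis), at the 583 tested windows by distance from the start of the stretch (horizontal axis); blue and orange points are windows listed in all libraries of a single genotype, circles mark an adjusted p under 0.05 and the dotted line stands at 5 Mb. Points lie on both sides of 0 over the first 5 Mb, and 35 of the 41 windows beyond 7 Mb lie below 0.

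Of the 6 windows past the adjusted threshold 3 had no listed summit in any library of the other genotype, so they were tested only because of the genotype in which they are high, and the filled values set their fitted change and its spread. Their log2 changes and p-values are therefore not given as tests, and among windows listed in all 6 libraries the calls were 3 lower and 0 higher. When limma was fitted to the windows listed in all 6 libraries alone, which needs no filling, 6 of 278 windows of the stretch were lower and 1 was higher, against a background of 0.589% and 0.284%. Of the 6 lower windows 4 were among the 45 at 15 to 20 Mb.

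The 1 higher window was of that kind. The window chr18:11551893-11552393, intergenic and 81.1 kb from the nearest start site of Rbbp8 (an endonuclease cofactor in DNA end resection), had fold enrichments of 15.1, 13.7 and 13.5 in the DKO libraries, from pileups of 53, 48 and 43, and was listed in no WT library. Its ranks in the DKO lists, 89.3, 86.3 and 90.2, were far above the limit of the lists.

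Of the 5 windows that were lower, 2 lay upstream of Zfp521, whose product is a zinc finger protein that restrains adipocyte commitment. At chr18:14113116-14113616, 141 kb from its start site, fold enrichment was 21.5, 17.1 and 24.8 in WT and 7.83, 6.52 and 9.18 in DKO, which limma estimated as −1.28 ± 0.16 on the log2 scale (SE, adjusted p = 0.0268). Pileups there fell from 114, 79 and 165 to 27, 22 and 27, and the rank from between 95.8 and 98.1 to between 58.99 and 79.4. At chr18:14173766-14174266, 201 kb from the same start site, WT fold enrichment was 7.59, 5.98 and 9.39 and no DKO library listed a summit. Both are intergenic.

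The other 3 lay in the last 3 Mb. The window chr18:17074111-17074611, in an intron of the lincRNA gene 1700001G01Rik, had fold enrichments of 7.88, 5.98 and 9.39 in WT and was not listed in DKO. At chr18:19545212-19545712 fold enrichment was 14.3, 7.97 and 17.9 in WT and 3.91, 3.40 and 3.28 in DKO (log2 change −1.70 ± 0.22, SE, limma adjusted p = 0.0322). At chr18:19631804-19632304 it was 20.1, 21.1 and 23.5 in WT and 9.78, 10.2 and 7.86 in DKO (log2 change −1.07 ± 0.11, SE, limma adjusted p = 0.0116). The latter 2 windows are intergenic, 456 and 370 kb from the start site of Dsc3, a desmosomal cadherin of epithelia, and both hold an AP-1 motif. None of the 6 calls was kept with a replicate block, and none of the 5 lower ones without scaling or when any 1 library was left out. The block cannot move a log2 change, since each genotype holds every replicate number. For the 3 windows listed in all 6 libraries the log2 changes without scaling were −1.43, −1.85 and −1.22 in their order along the chromosome. Leaving out each library gave log2 changes of −1.44 to −1.12, −1.94 to −1.55 and −1.12 to −0.99, with limma adjusted p of 0.145 to 0.273.

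**Figure D4:**
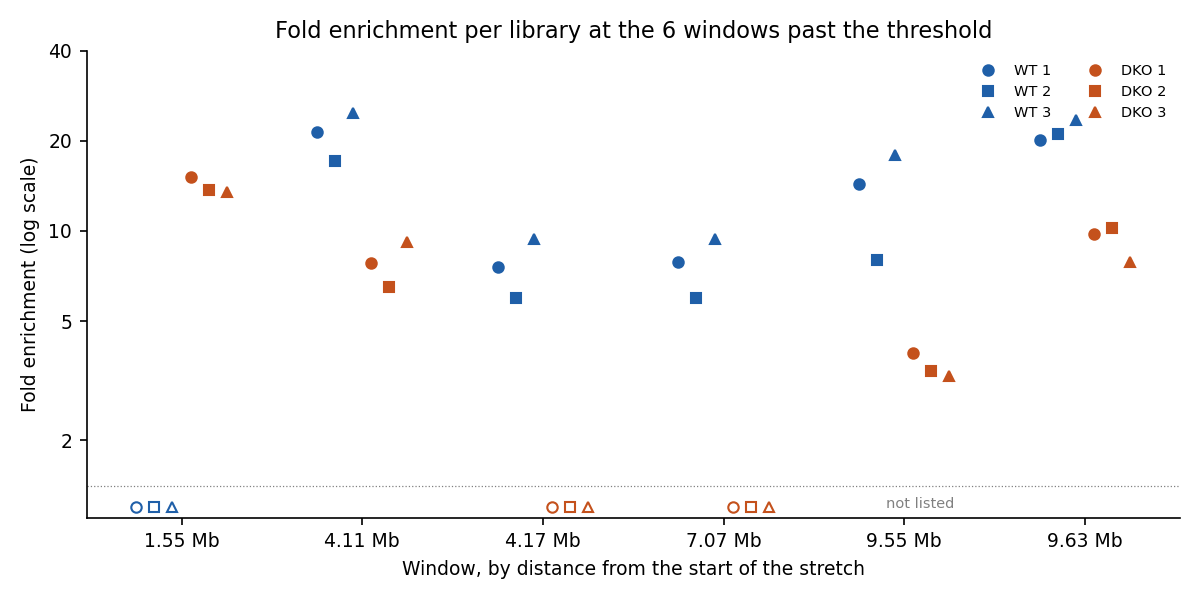
Fold enrichment on a log axis (vertical) in each library at the 6 windows with a limma adjusted p under 0.05, named by distance from the start of the stretch (horizontal axis); open symbols below the dotted line are libraries without a listed summit. The window at 1.55 Mb was listed in DKO only and those at 4.17 and 7.07 Mb in WT only, and at the other 3 every DKO value lies below every WT value.

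Sites present in a single genotype were counted as windows listed in all 3 libraries of that genotype and in none of the other, with no test. There were 18 WT-only windows, 6 at 10 to 15 Mb and 12 at 15 to 20 Mb, and 5 DKO-only windows, 3 and 2 in the respective parts. WT-only windows made up 1.27% of the tested windows at 10 to 15 Mb and 10.9% at 15 to 20 Mb, against 1.23% of all windows, and DKO-only windows 0.634% and 1.82%, against 1.14%. At 17 to 20 Mb there were 9 WT-only windows among 41 and 0 DKO-only windows. The adjoining 10 Mb held 4 WT-only and 1 DKO-only windows among 370.

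Most of these sites were weak. When a listed interval had to cover at least 0.5 of the window in place of a summit in it, 7 windows were WT-only and 1 was DKO-only. Pileups at the WT-only windows ran from 10 to 39 with a median of 14, close to the limit of the lists, and fold enrichment from 3.13 to 9.39. At the DKO-only windows pileups ran from 9 to 53 with a median of 13. None lay within 1 kb of a start site: of the 18 WT-only windows 11 were intergenic and 7 intronic, and of the 5 DKO-only windows 3 were intergenic and 2 intronic.

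In the gene-rich part the WT-only window chr18:12102771-12103271, in an intron of Tmem241 (a nucleotide sugar transporter), had fold enrichments of 6.56, 6.50 and 7.88. The other WT-only windows there lay in introns of Lama3 (a laminin chain of basement membranes) and Osbpl1a (an oxysterol binding protein), between genes near Greb1l and near Gata6 (a GATA family transcription factor), and at the second Zfp521 window above. The DKO-only windows of this part were the one near Rbbp8, one 179 kb from Gata6 with fold enrichments of 4.75, 3.40 and 3.93, and one in an intron of Cables1, whose product binds cyclin-dependent kinases, with 3.51, 4.89 and 4.84.

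In the sparse part 3 of the 12 WT-only windows lay in introns of 1700001G01Rik and 1 in an intron of Kctd1, a BTB domain protein that represses transcription. The other 8 were intergenic and 11 of the 12 were over 100 kb from any protein-coding start site. Those at chr18:18503314-18503814 and chr18:18662827-18663327 were 1498 and 1339 kb from the nearest such site, with fold enrichments of 4.96, 6.26 and 5.58 and of 4.09, 3.70 and 4.70. The 2 DKO-only windows were 320 kb from Chst9 (a sulfotransferase), with 3.63, 3.97 and 3.60, and in an intron of Cdh2, with 3.35, 3.40 and 3.25. Both were among the weakest sites of their lists, with ranks of 6.68 to 25.8.

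Windows were also counted by gene. The lincRNA gene 1700001G01Rik (chr18:17019051-17137559, ENSMUSG00000087170.7) held 6 tested windows, of which 3 were WT-only and 2 were listed in all 6 libraries. All 6 had a change below 0, which at the WT-only windows rests on filled values. Its window chr18:17132134-17132634 was listed in all 6 libraries, with fold enrichments of 9.93, 8.25 and 12.3 in WT and 3.63, 4.53 and 5.24 in DKO (log2 change −1.01 ± 0.20, SE, limma adjusted p = 0.125, or 0.0145 when only windows listed in all 6 libraries were fitted). Between the genes Cdh2 and Dsc3, a span of 3152 kb that includes the lincRNA and no other protein-coding gene, 40 of 50 windows lay below 0 with a median of −0.89, filled values included. These spans were chosen after the values were seen.

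Cdh2, the gene of N-cadherin, lies just before that span (chr18:16588877-16809246). It held 14 tested windows, 10 of them in all 6 lists, with a median log2 change of 0.07, 6 below 0 (48.6% of all windows were) and 0 called by limma (0 lower and 1 higher at an unadjusted p under 0.05, which 6.1% and 5.69% of all windows passed). Its intronic window chr18:16740707-16741207 was among the strongest sites of the sparse part, with fold enrichments of 15.9, 16.97 and 16.8 in WT and 15.4, 15.4 and 13.2 in DKO, which overlapped after scaling (log2 change −0.03 ± 0.12, SE). The site chr18:16184673-16185173, 467 kb from Chst9, was the highest of the sparse part at 24.8, 21.6 and 28.3 in WT and 24.9, 23.96 and 19.8 in DKO (log2 change −0.02 ± 0.09, SE).

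Zfp521 held 43 tested windows in its 286 kb, 22 of them in all 6 lists. Of these 43, 21 lay below 0, the median change was 0.02 and limma called 0 (4 lower and 1 higher at an unadjusted p under 0.05, against 6.1% and 5.69% of all windows). Its promoter window had fold enrichments of 13.3, 11.7 and 13.3 in WT and 12.1, 12.8 and 11.01 in DKO. Between Zfp521 and Ss18, where both lower windows of the gene-rich part lie, 27 of 41 windows were below 0 with a median of −0.15, whereas between Hrh4 and Zfp521 31 of 62 were below 0 with a median of 0.00, and 48.6% of all windows were below 0. These spans too were chosen after the values were seen, and their counts and medians include filled values. An intergenic site 55.6 kb upstream of Zfp521, chr18:14028183-14028683, was unlike the lower windows farther out, with 20.9, 19.6 and 22.3 in WT and 22.5, 21.8 and 16.9 in DKO.

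Between Gata6 and Rbbp8, where the 1 higher window lies, 15 of 51 windows were below 0, against 48.6% of all windows, with a median of 0.15. This span was also chosen after the values were seen. Only 27 of its windows were listed in all 6 libraries, so its median and counts include filled values. Of the 51, 7 were higher and 4 lower at an unadjusted limma p under 0.05, which 5.69% and 6.1% of all windows also passed. Intergenic windows chr18:11316348-11316848 and chr18:11309788-11310288, 264 and 258 kb from Gata6, were among the 5 highest changes at windows that were listed in all 6 libraries and did not overlap on the scaled values. The first had fold enrichments of 5.22, 4.88 and 4.23 in WT and 5.21, 7.26 and 6.71 in DKO (log2 change 0.58 ± 0.23, SE, limma adjusted p = 0.373). The second had 11.1, 8.82 and 12.6 in WT and 15.7, 14.9 and 11.5 in DKO (log2 change 0.54 ± 0.12, SE, limma adjusted p = 0.145).

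Of the 29 protein-coding genes with a start site in the stretch 25 had a tested window within 1 kb of it, 23 of these in all 6 libraries, and limma called 0 (0 lower and 4 higher at an unadjusted p under 0.05). Promoters leaned the same way across the genome, where 2484 windows were higher and 791 lower at that p of 30377 within 1 kb of any start site. The median log2 change over the 25 was 0.08, against 0.09 for all 24781 windows within 1 kb of a protein-coding start site. The 4 genes without such a window were Hrh4 (a histamine receptor), Psma8 (a proteasome subunit of male germ cells), Aqp4 (a water channel of glia) and Chst9.

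The highest promoter was that of Mib1, a ubiquitin ligase for Notch ligands, with fold enrichments of 27.5, 22.9 and 28.5 in WT and 27.0, 25.7 and 24.1 in DKO. Npc1, which exports cholesterol from lysosomes, had 21.8, 19.3 and 21.5 in WT and 20.1, 19.5 and 19.7 in DKO. Taf4b, a TFIID subunit, had 19.2, 15.5 and 19.1 in WT and 19.03, 16.4 and 14.97 in DKO. At all 3 the genotypes overlapped.

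Among 8 genes of transcription and chromatin regulators all had a window, 0 were called by limma and 0 had a change below 0, against 36.1% of all windows within 1 kb of a start site, with a median of 0.27. Rbbp8 had fold enrichments of 11.1, 14.7 and 15.96 in WT and 16.1, 20.6 and 15.3 in DKO (log2 change 0.47 ± 0.16, SE, limma adjusted p = 0.26). Gata6 had 6.45, 7.71 and 7.62 in WT and 9.44, 7.92 and 7.13 in DKO (log2 change 0.34 ± 0.18, SE). Ss18, a subunit of the BAF remodelling complex, was listed in 1 WT library at 4.41 and in all 3 DKO libraries at 3.39, 2.95 and 3.27, so that its fitted change above 0 rests on 2 filled WT values. The 3 genes of cholesterol and lipid handling (Abhd3, Npc1 and Osbpl1a) had a median of 0.38, and the 4 of cytoskeleton and signalling (Rock1, Mib1, Cables1 and Riok3) of −0.01, again with 0 called by limma and, in the latter list, 0 at an unadjusted p under 0.05.

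Of the promoters higher before adjustment, Usp14, a deubiquitinase of the proteasome, had 9.68, 12.3 and 11.5 in WT and 16.5, 15.1 and 13.5 in DKO, without overlap (log2 change 0.59 ± 0.16, SE, limma adjusted p = 0.168, or 0.0495 when only windows listed in all 6 libraries were fitted). The promoter of Impact, a regulator of the kinase GCN2, had the lowest change, with 3.80, 3.49 and 3.44 in WT and 2.57, 2.24 and 2.16 in DKO (log2 change −0.44 ± 0.35, SE, limma adjusted p = 0.617). In the sparse part only Kctd1 and Cdh2 had a promoter window. The Cdh2 promoter was weak in all libraries, with 4.16, 4.46 and 4.01 in WT and 3.67, 3.77 and 4.13 in DKO.

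**Figure D5:**
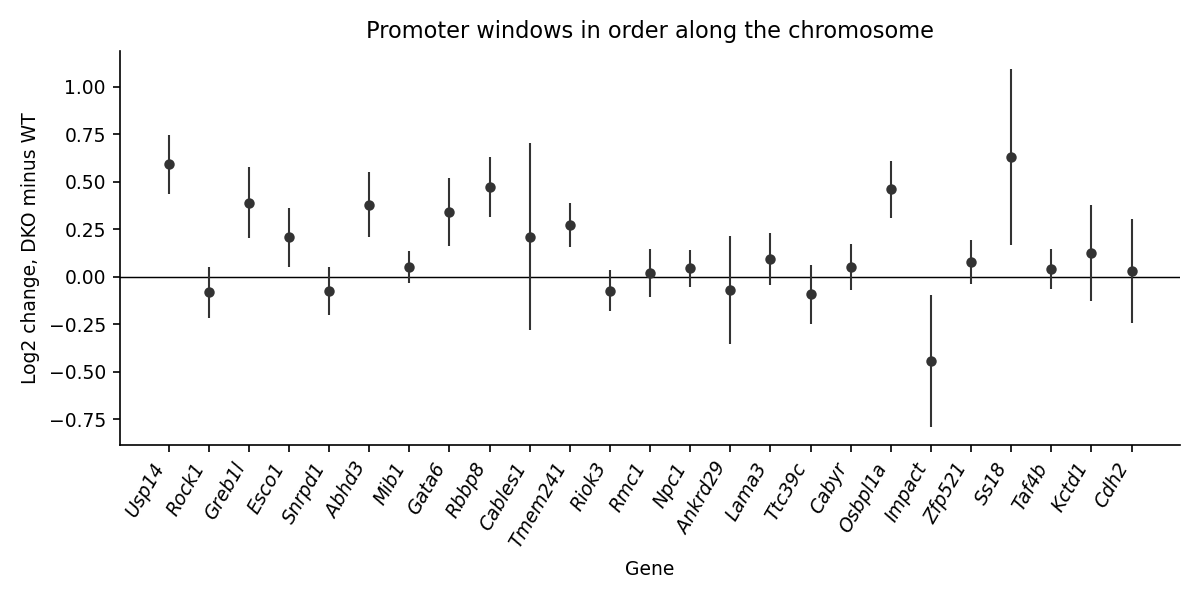
Log2 change, DKO minus WT (vertical axis), at the promoter windows of 25 protein-coding genes in their order along the chromosome (horizontal axis); points are limma estimates and bars are their SE. Of the 25 points 6 lie below 0, and the wide bars at Cables1 and Ss18 are windows missing from some libraries.

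The windows of the sparse part also differed in make-up. Median GC content was 45.1% at 10 to 15 Mb, 39.9% at 15 to 20 Mb and 46.3% over all windows, and it was 41.5% at 15 to 17 Mb and 36.5% at 17 to 20 Mb. The AP-1 motif TGANTCA occurred in the central 201 bp of 32.3% of windows at 10 to 15 Mb, of 44.5% at 15 to 20 Mb and of 29.97% of all windows (either strand). The TEAD motif GGAATG occurred in 15.6%, 24.5% and 16.3% and the CEBP motif TTGCNNAA in 12.5%, 15.5% and 12.03%. A match is a description of the sequence and not a bound site. Windows over 100 kb from a protein-coding start site made up 40.6% at 10 to 15 Mb, 57.3% at 15 to 20 Mb and 20.7% of all. The sparse part of the adjoining stretch, 25 to 30 Mb, held the AP-1 motif in 47.0% of its 100 windows, had 78.0% of them over 100 kb from such a site and had a median GC content of 44.3%.

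GC content and distance moved with the change. Over the whole genome the median log2 change was −0.17 for windows under 40% GC, 0.00 for 40 to 50% and 0.09 for 50% or more. In the sparse part the corresponding medians were −0.80 (56 windows), −0.08 (43 windows) and 0.12 (11 windows), and at 10 to 15 Mb −0.10, 0.00 and 0.11. Windows over 100 kb from a protein-coding start site had a median of −0.08 in the genome and of −0.82 at 15 to 20 Mb, but of 0.00 at 10 to 15 Mb. The adjoining 20 to 30 Mb lay between, with −0.35 for such far windows and −0.46 for windows under 40% GC. For the sparse part the median was −0.47 for 49 windows with an AP-1 motif and −0.26 for 61 without, whereas both were near 0 at 10 to 15 Mb (−0.01 and 0.02) and over all windows (0.00 and 0.01). These medians include filled values. Over windows listed in all 6 libraries the medians at 15 to 20 Mb were −0.27 under 40% GC (18 windows), −0.36 over 100 kb from a start site (19 windows), −0.06 with an AP-1 motif (26 windows) and −0.03 without (19 windows), and at 20 to 30 Mb the first was lower still, at −0.36 (28 windows). The part of GC content, distance and motif in the difference was not tested.

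At the edges of the stretch, the tested window just inside 10 Mb (chr18:10013332-10013832, an intron of Usp14) was listed in 2 WT and 2 DKO libraries with fold enrichments of 3.28 to 3.82. The one just outside, near Thoc1, had 4.56, 5.35 and 6.50 in WT and 4.15, 4.01 and 3.68 in DKO. Just inside 20 Mb (chr18:19960090-19960590, 41.6 kb from Dsc3) the values were 9.64, 8.25 and 12.03 in WT and 6.71, 5.39 and 4.26 in DKO. Just outside, in a coding exon of Dsc2, they were 3.80, 5.12 and 5.87 in WT and no DKO library was listed.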

How the data were processed

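The peak lists of 6 ATAC-seq libraries (3 WT, 3 DKO, day 0) were used. Per the labels and the study's methods, the authors demultiplexed with bcl2fastq 2.17, trimmed with cutadapt 1.18, aligned 50 bp read pairs to mm10 with Bowtie2 2.3.4.3, removed duplicate and mitochondrial reads, called peaks per library with MACS2 (version not given in the sources used here; the methods give default settings, the names of the lists a p of 0.01), kept about 300000 peaks and filtered blacklisted ones. The deposited fold enrichment is a ratio of pileup to local background, and the deposited p and q are −log10 values. Read totals were not analysed here. Entering both into the Poisson model of MACS2 returned whole pileups (within 0.001) for 100% of 9096 summits at 10 to 30 Mb.

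Windows of about 0.5 kb were centred on summits of chromosomes 1 to 19 and X, best ranked first, dropping those overlapping a better one, and tested where at least 2 libraries had a summit with q under 0.01. Fold enrichment (highest per window, absent values at the lowest of the list) was taken to log2 with no pseudocount, quantile normalized and fitted with limma 3.58.1 (R 4.3.3, with a trend), and p-values were adjusted by Benjamini-Hochberg over every tested window. The fit was first tested on simulated Gaussian values, which did not model the list limit or the filling of absent values. Single values per library were compared by exact permutation in Python 3.11.15. Annotation was GENCODE M21, and GC content and motifs came from RefSeq GRCm38.p6. Sequences of the stretch and 1 list of marker genes are not reported here. Named windows were the promoter window of each protein-coding gene, windows of a single genotype, called windows, the 5 highest of each part and, among windows in all 6 lists without overlap, the 5 lowest and 5 highest. Members, lists and tests were chosen with earlier results of these data known. Alternatives covered scaling, trend, list length, window definition, filling, rank measure, each library left out and a replicate block.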

Additional observations from a re-analysis of the deposited data

How the results depend on the processing

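Over 35 results 380 alternatives were computed, of which 274 kept the direction and the side of the threshold. The 5 lower windows became 0 without scaling, 21 without the variance trend, 3 with −log10 p in place of fold enrichment, 2 among the 50000 best peaks and 0 to 0 when 1 library was left out. The 1 higher window became 5 without the trend, 2 among the 50000 best and 0 to 1 without 1 library. At 15 to 20 Mb the 3 lower windows became 0 without scaling, 14 without the trend, 1 among the 50000 best and 0 to 0 without 1 library, and the 0 higher windows became 2 without the trend. Of all windows 1.17% were lower and 1.14% higher without the trend, against 0.0385% and 0.0234% in the main fit. The replicate numbers paired no libraries (correlations of the deviations 0.0054, −0.011 and −0.0071), and a replicate block left 0 lower and 0 higher windows, at 15 to 20 Mb too.

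The 18 WT-only windows became 2 among the 50000 best peaks, 7 when an interval had to cover 0.5 of the window and 23 to 32 without 1 library, where fewer libraries are required. The 5 DKO-only windows became 3, 1 and 8 to 13. At 15 to 20 Mb the 12 WT-only windows became 1, 4 and 12 to 18, and the 2 DKO-only windows 0, 0 and 2 to 4, or 1 by merged intervals. The share of summits in the stretch became 0.0047 percentage points higher in DKO among the 50000 best peaks (main −0.016; −0.022 to −0.0077 without 1 library, the latter without DKO replicate 2), and that of 10 to 15 Mb 0.013 (main −0.0013; −0.0063 to 0.0043 without 1 library). At 10 to 15 Mb the median fold enrichment became 0.029 on the log2 scale over all windows (main −0.926 as fold enrichment; −1.58 without WT replicate 2 to −0.189 without WT replicate 3), and the median rank 0.041 by fold enrichment (main −0.554). The rank relative to the adjoining 10 Mb became −0.399 over all listed summits (main 3.44). The cause was not tested. The lower share of summits, fold enrichment and rank at 15 to 20 Mb kept their direction in every alternative. Among the 50000 best peaks the share differed by −0.0087 percentage points, on a smaller base. The mean of these few summits (12, 11 and 14 in WT, 5, 9 and 10 in DKO) changed by −35.1%, against −24.9% over the full lists. Over all listed summits the differences shrank to −0.593 in fold enrichment and −2.08 in rank. Restricting the main share of summits to 17 to 20 Mb (−0.0136) or to 15 to 17 Mb (−0.00066) was added after seeing the data. A missing summit means only that it ranked below the limit of its list, and 3 libraries a group allow no exact p under 0.10.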
